A study of Mus musculus with 2931 samples.

Results

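The 10 genes described here belong to the Bcl2 family, the set of proteins that decide whether mitochondria release the factors that start apoptosis. They are Bcl2, Bcl2l1, Mcl1, Bak1, Bok, Bcl2l11, Bid, Bmf, Bbc3 and Pmaip1. They were chosen by symbol, with earlier results of these data known, and all 10 were found among the 18072 genes of the count table. The study sorted cells from the distal lung of mice and sequenced 2931 endothelial cells singly on plates, with transcripts tagged by Tn5 transposase and without molecular identifiers. The cells come from 10 named mice, a female and a male in each of 5 groups. In 4 groups the mice breathed normal air and were taken at embryonic stage E18.5 or on postnatal days 1, 7 and 21 (P1, P7 and P21). The remaining group was taken at P7 after hyperoxia, whose oxygen level and duration the labels do not give. No strain, genotype or transgene is given for any group. The replicate throughout is the mouse: reads were summed over the cells of a subtype in a mouse, and a sum was used where the mouse had at least 8 such cells. The subtype labels are the submitters' own and were made from the transcriptomes of these same cells. A difference between labels is therefore a difference between classes drawn on the same data.

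In this family, pro-survival members (Bcl2, Bcl2l1, which encodes Bcl-xL, and Mcl1) hold the pore-forming effectors in check. Effectors (Bak1 here, with Bax as its partner) open the outer mitochondrial membrane, and Bok is a related effector that can act without the others. BH3-only proteins (Bcl2l11, known as Bim, Bid, Bmf, Bbc3, known as Puma, and Pmaip1, known as Noxa) carry stress signals: they bind the pro-survival members or activate the effectors. Bbc3 and Pmaip1 are textbook targets of p53, and Bcl2l11 is a textbook target of FOXO transcription factors. Lung endothelium is remodelled rapidly around birth, and high oxygen is a classical injury to it.

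The genes lie on 7 chromosomes of the GRCm38 build (GENCODE M21 annotation), and all are protein-coding. Bcl2 is at chr1:106538178-106714274 and Bok at chr1:93685660-93695764. Bcl2l1 (chr2:152780668-152831728), Bcl2l11 (chr2:128126038-128162547) and Bmf (chr2:118528757-118549687) share chromosome 2. Mcl1 is at chr3:95658788-95663176, Bid at chr6:120891930-120916853, Bbc3 at chr7:16308393-16318205 and Bak1 at chr17:27019810-27029009. Exons of 3 members overlap exons of a gene on the opposite strand: Bcl2 shares 558 bases with D630008O14Rik, Bak1 shares 614 bases with Ggnbp1, and Bid shares 628 bases with Bcl2l13. Whether strand was used in counting is not given in the sources used here, so reads of those stretches cannot be told apart.

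Promoters are shown for Bok and Bcl2l11, because these are the members whose differences passed the test over all genes. RefSeq promoter windows (GRCm38.p6, 250 bases before to 50 after a start) were taken by symbol for 9 of the 10 members. Pmaip1 was left out and its promoter was not examined. The Bok window is chr1:93685325-93685624 on the plus strand, with its GC box in capitals. Of the 2 Bcl2l11 windows, the one printed is chr2:128125788-128126087 on the plus strand, with its FOXO core in capitals.
Bok: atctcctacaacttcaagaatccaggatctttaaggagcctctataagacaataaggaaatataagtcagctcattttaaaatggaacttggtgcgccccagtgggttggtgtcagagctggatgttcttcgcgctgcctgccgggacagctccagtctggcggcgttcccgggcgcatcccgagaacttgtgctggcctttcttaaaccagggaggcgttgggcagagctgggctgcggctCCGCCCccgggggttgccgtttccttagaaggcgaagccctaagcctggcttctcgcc
Bcl2l11: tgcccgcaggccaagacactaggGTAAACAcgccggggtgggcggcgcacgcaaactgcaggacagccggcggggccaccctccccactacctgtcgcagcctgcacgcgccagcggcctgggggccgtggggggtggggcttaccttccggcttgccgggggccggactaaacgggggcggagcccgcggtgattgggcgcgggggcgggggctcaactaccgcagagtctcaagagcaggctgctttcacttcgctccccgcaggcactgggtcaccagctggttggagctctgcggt
The GC box (GGGCGG, either strand) occurs 1 time in the Bok window and in 35.7% of all 32851 windows of this length. The FOXO core (GTAAACA, either strand) occurs in 1 of the 2 Bcl2l11 windows, in 1 of the 3 Bbc3 windows and in 3.65% of all windows. No window of these 9 members held TATAAA on either strand, a motif found in 13.6% of all windows. The Bok window has 16 CpG dinucleotides, and 33.0% of all windows have as many or more; the printed Bcl2l11 window has 27, which 15.5% of windows reach. A motif match describes these letters and is no evidence of binding.

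Depth ranged from 212 to 359 cells and from 56564316 to 331392982 reads a mouse, with a median of 188609.5 to 928377 reads a cell, the lowest median being in the male P7 mouse. The identity markers Prox1, Car4 and Mki67 were high where the labels place them, though the labels were made from these same transcriptomes. Prox1 lay at 191.1 to 735 counts per 1000000 reads (CPM) in lymphatic cells and at no more than 40.2 CPM in any other class. Car4 lay at 3397 to 9358 CPM in Car4+ capillaries and at no more than 698 CPM elsewhere. Mki67 lay at 496 to 2226 CPM in proliferative cells and reached 346 CPM elsewhere, in lymphatic cells of the female P1 mouse. Markers of other cells were low beside the endothelial list (6 genes, summed level at least 3679 CPM): over all sums the leukocyte list reached at most 268 CPM, the mesenchymal list 306 CPM, the epithelial list 187.9 CPM, and the erythrocyte and platelet list 344 CPM. The code that starts with DC in each cell name was taken as its run, and run is partly tied to group. Among cells sorted by CD31, the female E18.5, P1 and P21 mice share a run, the male E18.5, P7, P21 and hyperoxia mice share another, and the female P7, male P1 and female hyperoxia mice each have a run of their own. The gate named mesench gave 65 cells of the female P21 mouse, in the run of the female P7 CD31 cells, 120 of the male P21 mouse, in the run of the male P1 CD31 cells, and at most 23 of any other mouse. The labels do not say that a mouse name stands for a separately reared animal, so p-values measure the spread between these named mice.

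Levels of different genes were compared as CPM per kilobase of exon, averaged over 50 sums of a label in a mouse. On that scale Mcl1 had the highest mean, at 41.4, then Bcl2l1, at 33.2, and Bok, at 24.5, against 10.1 for Bbc3, 5.59 for Bcl2, 5.02 for Bid, 3.97 for Bcl2l11, 3.79 for Pmaip1, 2.94 for Bak1 and 2.05 for Bmf. Bok owes its place to a few labels: its mean was 132.7 CPM per kilobase in lymphatic, 43.6 in proliferative and 33.0 in nonproliferative embryonic cells, and in the other 6 of 9 labels, where Bok had at most 15.8, Bbc3 lay above it. Mcl1 and Bcl2l1 were both above every other member in 5 of the 9 labels. A read was found in many cells for the abundant genes only: 66.5% of all cells had an Mcl1 read and 51.6% a Bcl2l1 read, against 30.9% for Bcl2, 22.01% for Bcl2l11, 15.2% for Bok and 6.99% for Bid. Mcl1 and Bcl2l1 also varied least between sums, with a coefficient of variation of 0.597 and 0.566. For Bok it was 1.66 and for Pmaip1 2.04, and 13 and 15 of the 50 sums held no read of these genes.

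Few cells carry most reads of the rarer members. In the median class and mouse the highest cell alone gave 19.5% of Bcl2l1 reads and 19.7% of Mcl1 reads, but 44.2% of Bok, 46.4% of Bcl2l11, 78.6% of Bmf and 79.2% of Pmaip1 reads. Such sums of BH3-only genes rest on a handful of cells, and their spread between mice is wide.

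Among the 10 genes, which do not include the effector Bax, the balance between roles differed in value between labels. The pro-survival genes made up 77.2% ± 11.03 (SD, n = 9 mice) of the summed CPM per kilobase of the 10 genes in venous cells, 73.3% ± 17.6 (n = 5) in Late Car4- capillaries, 67.7% ± 7.28 (n = 6) in Early Car4- capillaries and 61.8% ± 8.56 (n = 8) in Car4+ capillaries. In lymphatic cells they made up 30.6% ± 10.4 (n = 4), and the effectors 59.9% ± 11.2. Nearly all of that effector share was Bok, at 59.3% ± 11.2. The effector share was 30.7% ± 15.2 (n = 8) in proliferative cells, 28.0% ± 2.99 (n = 2) in nonproliferative embryonic cells and 3.12% ± 3.61 (n = 5) in Late Car4- capillaries. The range in lymphatic mice, 43.7% to 68.3%, lay above that of every other label with at least 2 mice except the proliferative one, whose highest mouse had 57.0%. Among labels with at least 2 mice the BH3-only share was highest in Car4+ capillaries, at 25.9% ± 8.51, and lowest in lymphatic cells, at 9.42% ± 3.07. These shares are a description with no test, and the effector share counts Bak1 and Bok only. Bax stood at 167.6 CPM in Car4- capillaries of the female P21 mouse and at 116.3 CPM in those of the male. Bak1 had 3.12 and 3.03 CPM there, so a low effector share is no measure of all effector RNA.

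**Figure D1:**
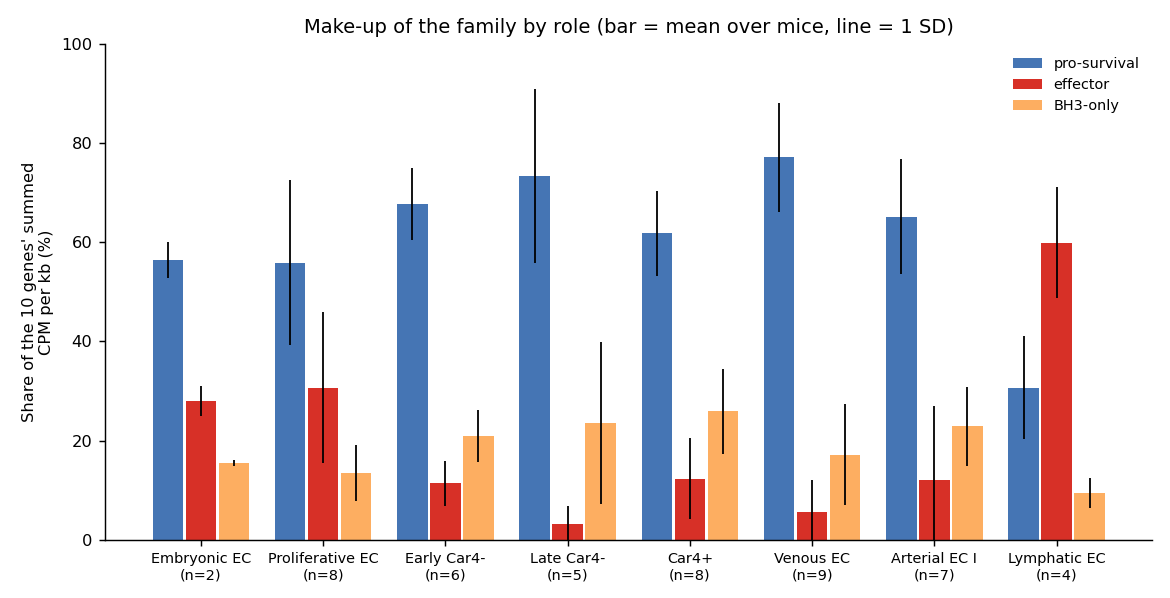
Share of the summed CPM per kilobase of the 10 genes (y axis, percent) held by pro-survival, effector and BH3-only members in each subtype label (x axis); bars are means over mice and lines 1 SD. Effectors (Bak1 and Bok, without Bax) hold 59.9% in lymphatic cells and 3.12% in Late Car4- capillaries.

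Shares of cells were compared after each cell was thinned to 50000 reads (11 cells were too shallow and left out). A read of at least 1 pro-survival gene was present in 80.1% ± 8.73 (SD, n = 6 mice) of Early Car4- cells, in 84.3% ± 12.9 (n = 9) of venous cells and in 87.5% ± 6.23 (n = 4) of lymphatic cells. In Late Car4- cells it was 45.6% ± 19.2 (n = 5), and the share of these cells with a Bax read, 25.4% ± 12.6, was also the lowest of the labels. An effector read (Bak1 or Bok) was found in 57.5% ± 25 of lymphatic cells, 37.0% ± 13.9 (n = 8) of proliferative cells and 3.78% ± 3.58 of Late Car4- cells. Late Car4- cells were thus lowest in every set of genes compared here. The male P21 mouse, with 265 of them, had the lowest median of genes detected per cell, 1831. The part of general detection in these shares was not tested.

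Among the pro-survival genes, Bcl2 was highest in nonproliferative embryonic cells, at 92.1 CPM ± 43.8 (SD, n = 2), and in Car4+ capillaries, at 85.8 ± 44.6 (n = 8). It was lowest in venous cells, at 25.6 ± 32.9 (n = 9), apart from the 1 mouse with enough Arterial EC II cells (0.993 CPM). Bcl2l1 was highest in Early Car4- capillaries, at 219 ± 99.1 (n = 6), then in venous cells, at 189.9 ± 85.3 (n = 9), and lowest in Arterial EC I, at 106 ± 66.3 (n = 7), apart from the 1 Arterial EC II mouse (38.8 CPM). Mcl1, a short-lived protein, was highest in Late Car4- capillaries, at 269 ± 159 (n = 5). That mean contains 543 CPM in the female P1 mouse, which had 21 such cells. After thinning, the mean share of Late Car4- cells with an Mcl1 read was 35.8%, the lowest of the labels. In the other labels with at least 2 mice Mcl1 averaged 106 to 156 CPM. For none of the 3 genes did neighbouring labels in the order of means differ by more than the larger of their SDs.

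Of the effectors, Bak1 was low in every label, with means of 3.53 to 13.1 CPM. Of the 7 steps between neighbouring labels with at least 2 mice, 2 exceeded the larger SD for Bok and 0 or 1 for every other member. Lymphatic cells led with 244 CPM ± 102 (SD, n = 4): the values were 385 in the female P1 mouse, 251 in the male P1 mouse, 180.0 in the female hyperoxia mouse and 160.4 in the male E18.5 mouse. Proliferative cells followed at 80.2 ± 57.1 (n = 8), with a range of 11.98 to 164.4 that reached the lowest lymphatic mouse. Nonproliferative embryonic cells had 60.7 ± 12.1 (n = 2), Car4+ capillaries 29.0 ± 31.6 (n = 8) and Early Car4- capillaries 24.5 ± 11 (n = 6). At the bottom stood venous cells with 4.98 ± 7.71 (n = 9) and Late Car4- capillaries with 3.18 ± 7.09 (n = 5). The steps from lymphatic to proliferative cells and from embryonic to Car4+ cells exceeded the larger SD; the other 5 steps of Bok did not.

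The BH3-only genes split the labels in different ways. Bcl2l11 had 3.80 CPM ± 4.25 (SD, n = 8) in Car4+ capillaries, the lowest mean, and 26.0 to 52.0 CPM in the other labels with at least 2 mice. Bmf, a sensor of lost attachment, had 50.4 ± 14.6 (n = 2) in nonproliferative embryonic cells. The 40.1 and 60.7 CPM of those mice lay above every mouse of the next label, Early Car4- capillaries (15.2 ± 10.4, n = 6, highest 34.3), the one neighbour step of any member with separate ranges. Bbc3 had 35.1 ± 15.2 (n = 8) in Car4+ and 32.7 ± 7.06 (n = 6) in Early Car4- capillaries, and 10.9 to 18.4 CPM in the other labels with at least 2 mice. Pmaip1 and Bid were scattered. Pmaip1 means ran from 0.113 CPM in embryonic cells to 32.0 ± 39.5 in Late Car4- capillaries. Bid means ran from 5.86 to 36.8 ± 63.4 CPM, the last carried by 149 CPM in the female P7 mouse. In that mouse 1 cell gave 58.5% of the Bid reads of all Car4- capillaries.

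**Figure D2:**
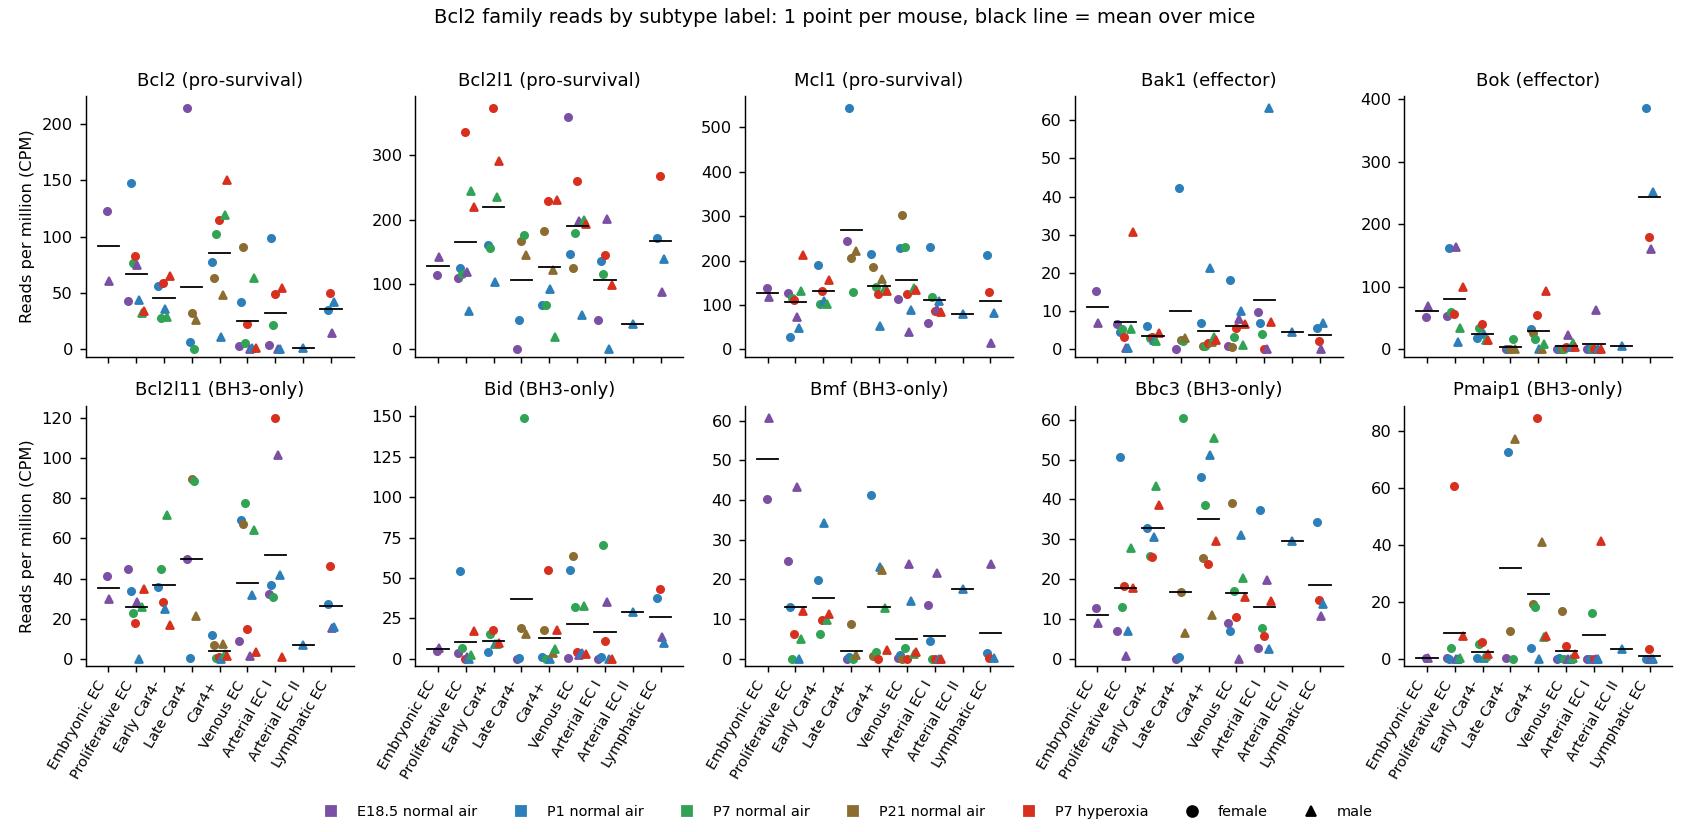
CPM of each member (y axis, linear) by subtype label (x axis); each point is a mouse with at least 8 cells of the label, circles female and triangles male, colours are the groups, and the black line is the mean. Bok stands at 160.4 to 385 CPM in the 4 lymphatic mice, and Bcl2l11 at no more than 11.7 CPM in the 8 Car4+ mice.

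Early and Late Car4- capillaries could be compared within a mouse only in the female P1 and P7 mice. Bok had 18.49 CPM in Early and 0 in Late cells of the P1 mouse, and 34.3 and 15.9 CPM in the P7 mouse. After thinning, only 2.27% of the 44 Late cells of that P7 mouse had a Bok read. Bcl2 had 56.1 against 6.14 CPM at P1 and 27.5 against 0.472 CPM at P7. Mcl1 stood the other way, with 189.5 against 543 CPM and 103 against 129 CPM. With 2 mice no test was made.

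Car4+ capillaries had lower Bcl2l11 (Bim) than Car4- capillaries of the same animal. In 8 of 8 postnatal mice the Car4+ value was the lower one. It was 11.7 against 33.4 CPM in the female P1 mouse, 0 against 24.5 in the male P1 mouse, 0.432 against 50.2 in the female P7 mouse and 2.20 against 70.4 in the male P7 mouse. At P21 it was 6.80 against 89.8 in the female and 7.23 against 24.2 in the male, and after hyperoxia 0.836 against 28.0 and 1.24 against 16.5. The highest Car4+ mouse (11.7) lay below the lowest Car4- mouse (16.5), so the classes did not overlap. The share of all genes whose classes did not overlap was not computed. Over mice the means were 3.80 CPM ± 4.25 and 42.1 ± 25.9 (SD, n = 8). The fitted log2 difference was -4.15 (SE 0.93), with an adjusted p of 0.0154 by edgeR's quasi-likelihood test with mouse as a block and Benjamini-Hochberg adjustment over 14711 genes; 8.53% of all genes were called in this comparison. In the 6 normal-air mice alone the log2 difference was -4.09 and the adjusted p 0.0857, above the threshold of 0.05; over all alternatives the adjusted p ranged from 1.09e-08 to 0.0857. The share of thinned cells with a Bcl2l11 read was 0 to 13.6% in Car4+ mice and 7.46% to 27.4% in those of the Car4- class, ranges that overlap.

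The other 9 members did not pass in that comparison. Bcl2 was nearest, with the opposite sign: 85.8 CPM ± 44.6 in Car4+ and 40.1 ± 16.1 in Car4- capillaries (SD, n = 8), higher in 7 of 8 mice, log2 difference 1.18 (SE 0.41), edgeR adjusted p 0.100 (range over alternatives 0.00180 to 0.294). The male P1 mouse was the exception, with 11.04 against 35.3 CPM, and Bcl2 passed without it. Bcl2l1 had 126.5 ± 78.9 against 202.5 ± 89.6 CPM and was lower in 7 of 8 mice without passing. Medians over the 10 members and over all genes tested were -0.08 and -0.45 on the log2 scale.

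Genes around the family were read from lists. In this comparison of Car4+ with Car4- capillaries 8.53% of all genes were called, and no list was tested against that share. Of 8 listed regulators of Bim and Mcl1, all tested, Foxo1 alone was called: the transcription factor had 28.5 CPM ± 35.5 in Car4+ and 122.8 ± 47.2 in Car4- capillaries (SD, n = 8), lower in 8 of 8 mice, log2 difference -2.74, edgeR adjusted p 0.00886. The narrowest pair was in the female P7 mouse, with 106.8 against 123.9 CPM. Of 17 genes of the apoptosome and caspase list, 2 were lower, the executioner Casp6 (72.9 ± 30.4 against 183.6 ± 37.3 CPM) and the caspase inhibitor Xiap (93.0 ± 43.6 against 208 ± 67.2), and none was higher. Among 9 tested relatives of the family the BH3-only gene Bik was lower (18.7 ± 16.4 against 62.9 ± 33.4). The death receptor Fas was higher (326 ± 92.2 against 214 ± 76.5; 1 of 10 tested). Of 11 p53 pathway genes 2 were higher, the cell cycle inhibitor Cdkn1a (2505 ± 1566 against 1202 ± 1137) and Phlda3, an Akt antagonist (336 ± 218 against 157 ± 164).

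**Figure D3:**
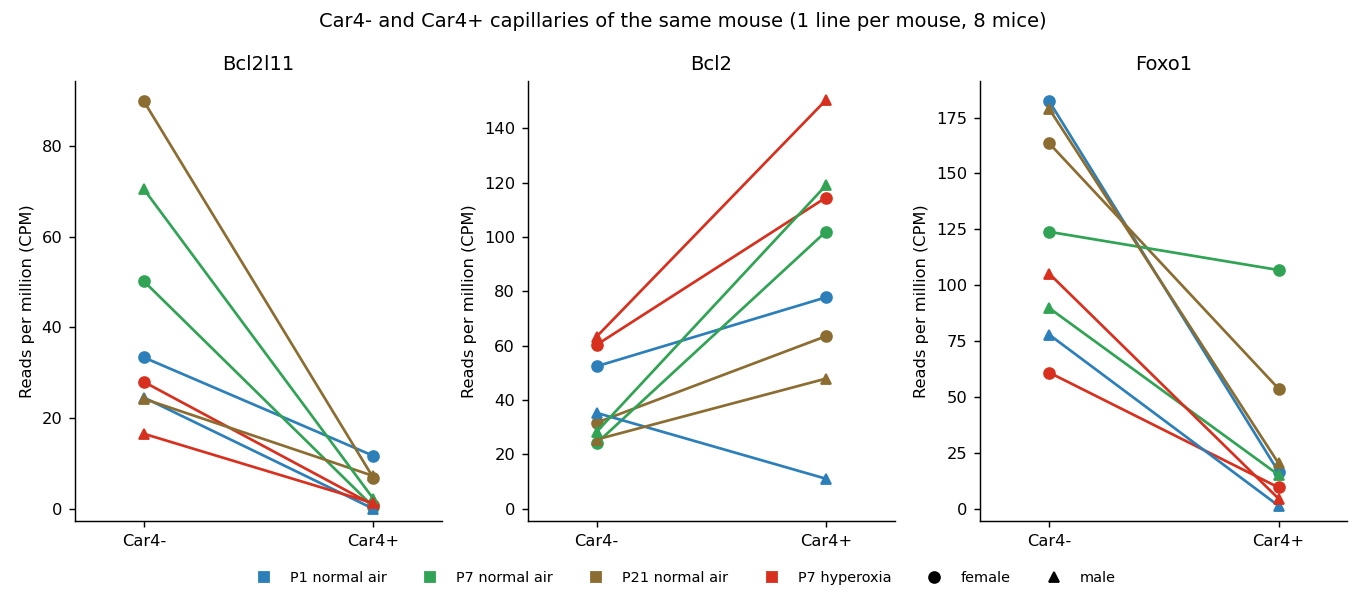
CPM (y axis, linear, a scale for each panel) of Bcl2l11, Bcl2 and Foxo1 in Car4- and Car4+ capillaries (x axis); each line joins the values of 1 of 8 mice, coloured by group. Bcl2l11 and Foxo1 are lower in Car4+ capillaries in 8 of 8 mice, and Bcl2 is higher in 7 of 8.

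Lymphatic cells had higher Bok than the Car4- capillaries of the same mice. The 3 mice with enough cells of each class had 385 against 17.1 CPM (female P1), 251 against 24.2 (male P1) and 180.0 against 40.8 (female hyperoxia). Means were 272 ± 104 and 27.4 ± 12.1 (SD, n = 3), with no overlap. How many of all genes showed no overlap in these 3 mice was not computed. The fitted log2 difference was 3.10 (SE 0.52) and the edgeR adjusted p 0.0150; 5.43% of all genes were called. Without the female P1 mouse the log2 difference was 2.51 and the adjusted p 0.113, the highest of a range that began at 3.90e-08. Bok reads were spread over cells: 20 of 26, 10 of 13 and 10 of 14 lymphatic cells had 1 or more, and the highest cell gave 18.1% to 32.2% of them. Mki67 moved with this difference. Lymphatic mice had 81.8 to 346 CPM of this proliferation marker, the survivin gene Birc5 was called higher (log2 difference 5.61, adjusted p 0.00599), and proliferative cells also had more Bok than Car4- capillaries in 5 of 6 mice without passing (70.8 ± 53.7 against 23.7 ± 10.8 CPM, log2 difference 1.30, adjusted p 0.296). The leukocyte markers summed to 14.9 to 181 CPM in lymphatic mice. The part of cycling or other cells in the lymphatic value was not tested.

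No other member passed in lymphatic cells, although Bmf came close: 0.561 CPM ± 0.806 against 20.7 ± 12.4, lower in 3 of 3 mice, log2 difference -6.25 (SE 1.61), edgeR adjusted p 0.0736 (range over alternatives 2.56e-06 to 0.366). In the death receptor list 2 of 10 tested genes were called lower, beside 5.43% of all genes called in either direction. No list was tested against that share. The 2 genes were Fas (5.65 ± 4.601 against 171 ± 52.7 CPM) and the initiator caspase gene Casp8 (58.0 ± 50.7 against 170.4 ± 80.1). Cdkn1a of the p53 list was lower as well (476 ± 479 against 1327 ± 1006, each ± SD with n = 3).

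The remaining class comparisons called none of the 10 members by edgeR. In venous against Car4- cells (8 mice, 2.63% of all genes called) 2 members had an unadjusted p under 0.05 and DESeq2 called 1, Bmf. Bok had 2.69 CPM ± 3.73 in venous and 17.8 ± 14.3 in Car4- cells, lower in 7 of 8 mice with the other at 0 in each class (log2 difference -3.79, adjusted p 0.319). Foxo1 was called higher in venous cells (342 ± 133 against 106.1 ± 48.1 CPM, 8 of 8 mice, edgeR adjusted p 0.00735). Bcl2l11 averaged 42.1 ± 30.6 against 44.7 ± 24.9 CPM, and the venous value was higher in 3 mice and lower in 5. A link between the 2 genes was not tested. In proliferative against Car4- cells (6 mice, 3.43% called) 1 member, Bok, had p under 0.05 and DESeq2 called none. In arterial against Car4- cells (7 mice, 0.612% called) no member had p under 0.05 and DESeq2 called Bok. In venous against arterial cells (8 mice, 1.95% called) Bcl2l1 had p under 0.05, with 198.0 ± 87.4 against 125.6 ± 52.9 CPM and a higher venous value in 7 of 8 mice (adjusted p 0.360), and DESeq2 called none.

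With age, Bok was lost from the reads of Car4- capillaries by P21. At P1 its level was 17.1 CPM in the female and 24.2 in the male mouse, at P7 31.9 and 14.2, and at P7 after hyperoxia 40.8 and 14.04. At P21 the 272 cells of the female mouse held 2 Bok reads and the 268 cells of the male mouse 1, or 0.0103 and 0.00811 CPM, each under the level of 3 reads in their libraries (0.0154 and 0.0243 CPM). The P21 mice lay below all 6 other postnatal mice of the class. How many of all genes showed such a separation was not computed. edgeR gave a fitted log2 difference of -11.02 (SE 1.21) from P7 and an adjusted p of 0.00686 over 14660 genes, of which 0.266% were called; a fitted fold against so few reads depends on the model's prior. From the pooled reads, 6303 at P7 and 3 at P21, P7 was 3132-fold higher (exact 95% interval 1071 to 15190, counting error only, and too narrow where reads are copies of 1 molecule). The female P7 mouse gave 5889 of those 6303 reads, and 62.5% of its reads came from 1 cell. For the male P7 mouse alone (414 reads, 21.3% of them from its highest cell) the ratio to P21 was 1503-fold (interval 511 to 7316). Without the male P21 mouse the adjusted p was 0.0528 and the log2 difference -10.97 (the range over alternatives was 2.76e-20 to 0.159, the last with limma on mean log2 levels).

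The share of cells was lowest at P21 too. After thinning, a Bok read was found in 12 of 206 and 11 of 113 Car4- cells at P7, in 13 of 180 and 8 of 122 at P1, and in 0 of 272 and 0 of 268 at P21. Among cells of the shared male run, P7 had 18.1 CPM (111 cells) and P21 had 0 (184 cells), and in the shared female run P1 had 17.5 CPM (180 cells) and P21 0.0125 CPM (221 cells). Where runs were shared across gates, 197 CD31 cells of the female P7 mouse had 33.4 CPM and 50 mesench cells of the female P21 mouse had 0, which allows up to 0.0901 CPM (3 reads). In the other such run, 122 CD31 cells of the male P1 mouse had 24.2 CPM and 83 mesench cells of the male P21 mouse had 0.0198. The 9 mesench cells of the female P7 mouse held no Bok read, which allows up to 0.365 CPM. The label changes with age as well, since P21 Car4- cells are mostly labelled Late and those at P1 and P7 mostly Early. Median genes detected per cell were 1831 in the male P21 mouse, the lowest of all mice, and 3087 in the female P21 mouse. Epithelial markers summed to 77.0 and 169.1 CPM in P21 Car4- cells and to 28.8 and 51.7 CPM at P7; their part in the result was not tested. In Car4+ capillaries at P21 the mice disagreed, with 26.4 CPM of Bok in the female (3 of 57 thinned cells) and no read in 77 cells of the male.

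**Figure D4:**
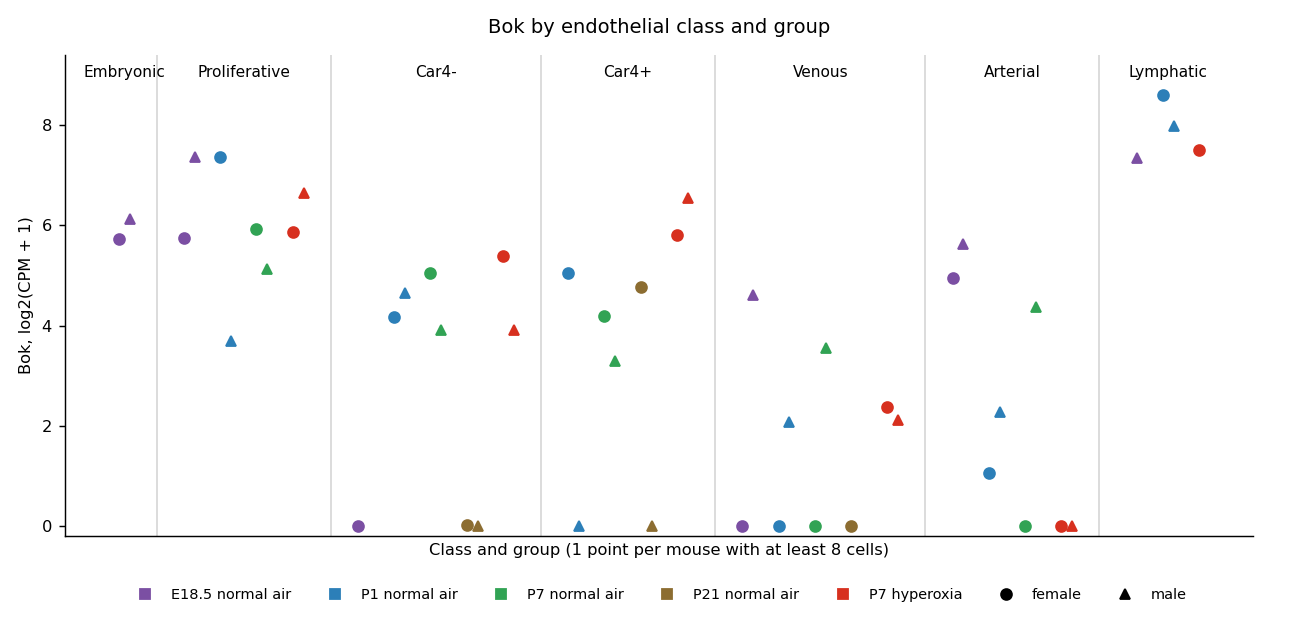
Bok as log2(CPM + 1) (y axis) in each class, with groups from left to right in the order of the legend; each point is a mouse with at least 8 cells, circles female and triangles male. The P21 points of Car4- capillaries lie at the bottom, next to a female E18.5 mouse with 13 cells and no read, and the 4 lymphatic mice at the top.

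The other members of Car4- capillaries did not pass between P7 and P21. Mcl1 had 204.4 and 220.5 CPM at P21 against 106.2 and 105.5 at P7 (log2 difference 1.13, SE 0.37, edgeR adjusted p 0.316), but the P1 mice, with 215 and 108 CPM, spanned those values. Bbc3 had 16.5 and 7.18 CPM at P21 against 30.1 and 44.8 at P7 (log2 difference -1.57, adjusted p 0.400). Pmaip1 had 9.73 and 82.0 CPM against 4.65 and 1.06 (log2 difference 4.17, edgeR adjusted p 0.385), and DESeq2 called it. In the male P21 mouse 1 cell gave 66.4% of the Pmaip1 reads. Among CD31 cells of the shared male run Pmaip1 had 27.1 CPM at P21 and 1.36 at P7. Groups did not overlap for these 3 genes, which are those named for an unadjusted p under 0.05. Separate groups of 2 mice each cannot bring an exact permutation test below 0.333. The share of all genes with separate groups was not computed. Bcl2 was level, at 31.7 and 25.5 CPM against 24.1 and 28.3. In the lists around the family no gene passed; the p53 targets Cdkn1a (log2 difference 2.22, adjusted p 0.191) and Fas (1.12, adjusted p 0.310) had the smallest p-values together with the ligand gene Tnfsf10 (1.28, adjusted p 0.241).

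No member was called at the other steps of age by edgeR, where few genes of any kind were. From P1 to P7, 0% of all genes were called in Car4-, Car4+, proliferative or venous cells, and 0, 0, 2 and 0 members had p under 0.05. DESeq2 called no member at these 4 steps. The pair in proliferative cells was Mcl1, with 115.3 and 132.0 CPM at P7 against 28.2 and 47.2 at P1 (adjusted p 0.495), and Pmaip1. The P1 sums of this class held 13 and 9 cells, and without the female P1 mouse Bcl2l11 was called in this step (log2 difference 7.88, adjusted p 0.00966) against 1 read in the 9 cells of the male P1 mouse. P1 is then a single mouse, assumed to vary like the other groups. In Car4+ capillaries from P7 to P21 (0.00814% of genes called) Bcl2l1 had 182 and 122.1 CPM against 68.0 and 19.5 (log2 difference 1.80, SE 0.68, adjusted p 0.858), the only member with p under 0.05; DESeq2 called none.

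Around birth the members of proliferative cells showed no p under 0.05 between E18.5 and P1 (0% of genes called, DESeq2 0 members). Without the female P1 mouse Bcl2l11 was called there as well (log2 difference -8.53, adjusted p 0.00802), again against that 1 read in 9 cells of the male P1 mouse. In venous cells (0.0162% called) 3 members had p under 0.05 and DESeq2 called none. Bcl2l1 had 146.2 and 53.1 CPM at P1 against 358 and 197.5 at E18.5 (log2 difference -1.71, adjusted p 0.541). Bcl2l11 had 69.3 and 31.8 against 8.97 and 1.45 (3.02, adjusted p 0.555), and Bid 54.8 and 3.25 against 0.195 and 2.23 (4.40, adjusted p 0.555). Each of these groups was separate, Bid by only 3.25 against 2.23 CPM, but the E18.5 sums came from 11 cells each. Separation of 2 mice from 2 cannot bring an exact permutation test below 0.333, and its share over all genes was not computed. Setting the nonproliferative embryonic cells against Car4- capillaries at P1 (0.494% called), which differ in age and in label, Bcl2 had 123.1 and 61.1 against 52.4 and 35.3 CPM (log2 difference 0.99, adjusted p 0.524). Bbc3 had 12.7 and 8.97 against 30.4 and 30.4 CPM (-1.58, adjusted p 0.446) and Pmaip1 0.0730 and 0.153 against 5.42 and 0.111 CPM (-4.51, adjusted p 0.380). DESeq2 called 1 member there, Pmaip1, whose groups overlapped in CPM.

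Hyperoxia at P7 called none of the 10 members in any of the 4 classes by edgeR. The share of all genes called was 0.0136% in Car4- capillaries and 0% in Car4+, proliferative and venous cells, and 2, 1, 0 and 1 members had p under 0.05. DESeq2 called 1 member, Bcl2l1 in Car4+ capillaries. With 2 mice against 2 an exact permutation test of a gene cannot go below 0.333. Bcl2l1 in Car4+ capillaries had 229.1 and 229.5 CPM after hyperoxia against 68.0 and 19.5 in normal air (log2 difference 2.22, SE 0.69, edgeR adjusted p 0.731). In Car4- capillaries it had 370.5 and 292 against 158.4 and 232 CPM (0.74, SE 0.35, adjusted p 0.887). Bcl2 in Car4- capillaries had 60.3 and 63.3 CPM against 24.1 and 28.3 (1.22, SE 0.46, adjusted p 0.887). In none of these sets did the groups overlap. The share of all genes whose groups did not overlap was not computed. The male pair that shared a run gave 292 against 249.9 CPM for Bcl2l1 in Car4-, 63.3 against 36.1 CPM for Bcl2 in Car4- and 229.5 against 49.4 CPM for Bcl2l1 in Car4+ capillaries.

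Bcl2l11 stood lower after hyperoxia in 2 classes, without passing. Car4- capillaries had 28.0 and 16.5 CPM against 50.2 and 70.4 (log2 difference -1.47, SE 0.58, edgeR adjusted p 0.887), and venous cells 14.7 and 3.37 against 77.6 and 64.0 (-3.01, SE 1.35, adjusted p 1.00). The groups were separate in each class, with the same limit of 0.333 for an exact permutation test of 2 mice against 2. How many of all genes had separate groups there was not computed. In proliferative cells they overlapped, with 17.97 and 34.7 against 22.8 and 25.6 CPM, and in Car4+ capillaries the gene was near 0 in either air. Bok in Car4+ capillaries had 54.9 and 92.8 against 17.4 and 8.79 CPM (2.30, SE 2.43, adjusted p 0.942).

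Bbc3 and Pmaip1 are the p53 targets within the family. Bbc3 had 25.6 and 37.8 CPM in hyperoxic Car4- capillaries against 30.1 and 44.8 in normal air (log2 difference -0.26, SE 0.58, edgeR adjusted p 1.00) and a negative estimate in all 4 classes. Pmaip1 had 5.86 and 1.49 against 4.65 and 1.06 CPM there (0.30, SE 1.36), and 60.8 and 8.04 against 3.67 and 0.223 CPM in proliferative cells (4.07, SE 2.12, adjusted p 1.00). Outside the 10 genes, Cdkn1a had 2339 and 3403 CPM against 209.4 and 211.9 in Car4- capillaries (3.75, SE 0.63, adjusted p 0.128), and Bax, an effector and itself a p53 target, had 557 and 736 against 158.6 and 160.0 CPM (2.00, SE 0.38, adjusted p 0.228). None of these adjusted values passed, and the difference between the genes was not tested. Over the p53 pathway list 9 of 11 genes in Car4-, 10 of 11 in Car4+, 11 of 12 in proliferative and 11 of 12 in venous cells had a positive estimate, with medians of 2.20, 1.23, 1.98 and 2.56 and no gene called. Medians over the 10 members were 0.36, -0.19, 0.68 and -0.51, against -0.01, -0.06, 0.00 and 0.01 over all genes.

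**Figure D5:**
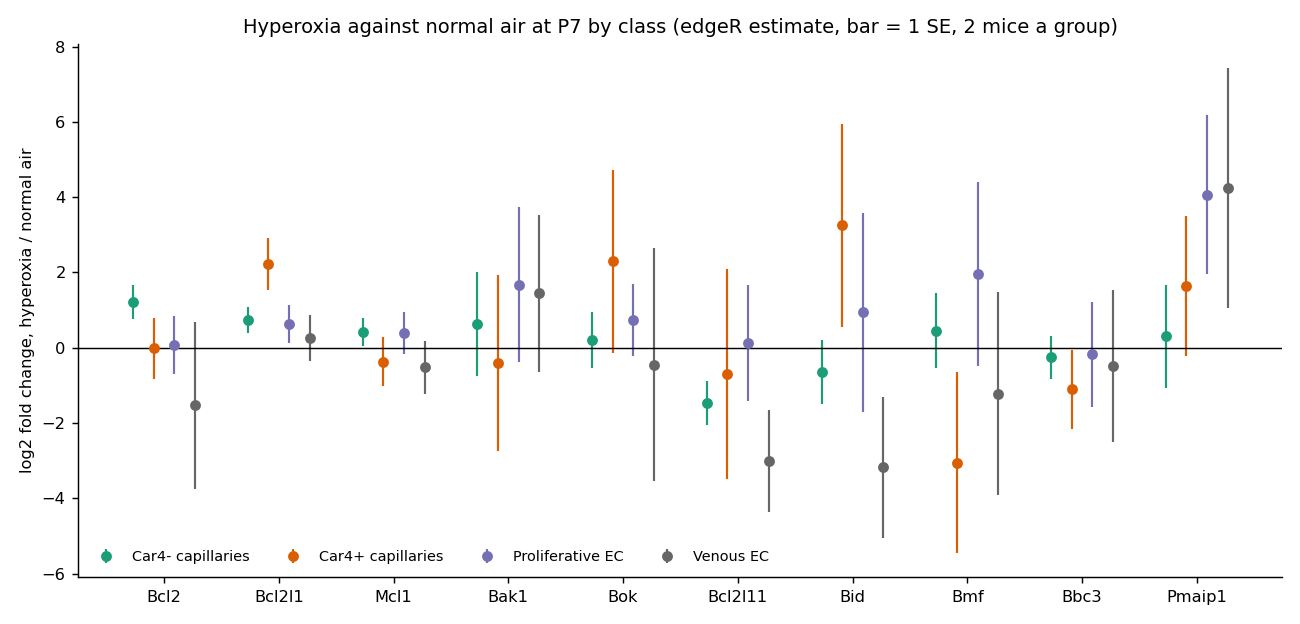
Log2 fold change of hyperoxia over normal air at P7 (y axis) for each member (x axis) in 4 classes (colours); points are edgeR estimates from 2 mice a group and bars 1 SE. Estimates of Bcl2, Bcl2l1, Mcl1 and Bbc3 are tighter than those of Bid, Bmf and Pmaip1, and none passed after adjustment.

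Whether hyperoxia acted differently on a member in another class than in Car4- capillaries was tested directly with the 4 P7 mice. No member passed in Car4+, venous or proliferative cells (0% of genes called in each by edgeR, DESeq2 0 members), and 0, 0 and 1 members had p under 0.05. That member was Pmaip1 in proliferative cells, with a difference of 4.06 on the log2 scale (SE 1.66, adjusted p 1.00). For Bcl2l1 the effect in Car4+ minus that in Car4- capillaries was 1.67 (SE 0.75, adjusted p 1.00), and for Bcl2l11 the effect in venous cells minus that in Car4- capillaries was -1.82 (SE 0.87, adjusted p 1.00).

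Members did not vary as a block. Over the 50 sums, which share libraries and mice, the highest Spearman rho between any 2 members was 0.42 (Bcl2l11 with Bid) and the lowest -0.31 (Bcl2l11 with Pmaip1). Among 7245 genes, the tubulin gene Tubb6 (rho 0.757), the mitochondrial import gene Timm50 (0.739) and Emid1 (0.710) were most like Bok over those sums. For Bcl2l11 they were the chromatin remodeller Chd7 (0.626), Ugcg (0.609) and Ccdc186 (0.580). Bcl2l1 was closest to Etf1 and Glb1 (0.699 each) and Mcl1 to Irgm1 (0.661).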

How the data were processed

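Endothelial cells of distal mouse lung were sequenced singly, and the deposited table holds raw read counts per gene and cell, without molecular identifiers. Per the submitters' processing notes STAR 2.5.2b and HTSeq 0.10 were used. Those notes list GRCh38, a human build, for these mouse cells, so the build is uncertain; coordinates here come from GRCm38 and were matched by gene symbol. Strand setting and filters are not given in the sources used here.

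Counts were summed per mouse and class (at least 8 cells) and given per 1000000 reads (CPM). Comparisons used edgeR 4.0.16 (quasi-likelihood test, TMM, filterByExpr; R 4.3.3), with mouse as a block between classes and Benjamini-Hochberg adjustment over all genes. The threshold for a call was an adjusted p of 0.05. Early and Late Car4- capillaries form the Car4- class, and both arterial labels the arterial class. The tests were also run on simulated counts. Those had no effect of mouse and no reads concentrated in few cells, so they are simpler than the real sums. Alternatives were DESeq2 1.42.0, RLE factors, no filter, CD31-gate cells only, cells thinned to 50000 reads, limma 3.58.1 on mean log2(CPM + 1), sex as a block, no mouse block, normal air only and leaving out each mouse. Intervals and 3-read floors cover counting error only.

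All 10 members are described, with values for those called or with a mean of at least 20 CPM in a group, and some lower ones. Of other lists, called genes are named, or else up to 2 genes per list with the smallest p under 0.05. Members and lists were chosen with earlier results of these data known.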

Additional observations from a re-analysis of the deposited data

Results flagged for a closer look

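In 22 of the 70 sets of a member in a label that held 4 to 10 mice, 1 mouse lay far from the others (Dixon's test at the 95% level). Chance gives such a mouse in about 1 in 20 sets of well-behaved values, and the values here are CPM that often rest on a few cells. Each set also joins mice of different ages, and most join normal air with hyperoxia. A mouse that stands apart may therefore differ by group, which was not tested.

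Among the pro-survival genes, Bcl2 stood apart at 213.9 CPM in Late Car4- capillaries of the female E18.5 mouse and at 147.9 CPM in proliferative cells of the female P1 mouse. Mcl1 did so at 230.7 CPM in Arterial EC I and at 543.4 CPM in Late Car4- capillaries, each in the female P1 mouse.

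Among the effectors, Bak1 reached 63.05 CPM in Arterial EC I and 21.18 CPM in Car4+ capillaries of the male P1 mouse, 42.18 CPM in Late Car4- capillaries of the female P1 mouse and 30.63 CPM in proliferative cells of the male hyperoxia mouse. Bok reached 62.94 CPM in Arterial EC I and 23.32 CPM in venous cells of the male E18.5 mouse, and 15.86 CPM in Late Car4- capillaries of the female P7 mouse.

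Among the BH3-only genes, Bid reached 55.18 CPM in Car4+ capillaries of the female hyperoxia mouse, 149.2 CPM in Late Car4- capillaries of the female P7 mouse and 54.15 CPM in proliferative cells of the female P1 mouse. Bmf reached 8.645 CPM in Late Car4- capillaries of the female P21 mouse and 23.84 CPM in lymphatic cells of the male E18.5 mouse. Bbc3 reached 60.54 CPM in Late Car4- capillaries of the female P7 mouse and 34.37 CPM in lymphatic cells of the female P1 mouse. Pmaip1 reached 41.42 CPM in Arterial EC I of the male hyperoxia mouse, 3.245 and 60.81 CPM in lymphatic and proliferative cells of the female hyperoxia mouse, and 16.79 CPM in venous cells of the female P21 mouse.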

How the results depend on the processing

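No fitted difference of a called member changed sign under any alternative run. With DESeq2 the number of members called became 2 in Car4- capillaries between P7 and P21, 1 between embryonic and P1 Car4- cells, 1 for hyperoxia in Car4+ capillaries, 3 in Car4+ against Car4-, 1 in venous against Car4-, 1 in arterial against Car4- and 2 in lymphatic against Car4- cells. With limma on mean log2 levels it became 0 between P7 and P21 in Car4- capillaries, 2 in Car4+, 3 in venous (Bcl2l1, Mcl1 and Bid) and 1 in proliferative against Car4- cells. Thinning gave 2 in Car4+ and 2 in lymphatic against Car4- cells, no filter 2 in lymphatic cells, and normal air only 0 in Car4+ against Car4-. Without the replicate block (mouse left out of the model) 2 members were called in Car4+ and 2 in lymphatic against Car4- cells. With sex as a block the number of members called stayed as it was at every step of age, around birth and for hyperoxia. Leaving out a mouse gave 0 to 1 member between P7 and P21 in Car4- capillaries (0 without the male P21 mouse), 0 to 1 in proliferative cells from E18.5 to P1 and 0 to 1 from P1 to P7 (1 without the female P1 mouse, each resting on 1 P1 mouse whose spread is assumed to be that of the other groups), 1 to 2 in Car4+ against Car4- (2 without the male P1 mouse) and 0 to 1 in lymphatic against Car4- cells (0 without the female P1 mouse). The label with the highest mean was the same for 6 of 10 members after thinning and for 8 with at least 15 cells, where Bak1 and Bok changed; only 1 lymphatic mouse had that many cells.

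Over all genes, DESeq2 called more than edgeR in every comparison. By age it called 398 against 0 (P1 to P7) and 692 against 39 (P7 to P21) in Car4-, 259 against 0 and 254 against 1 in Car4+, 506 against 0 (E18.5 to P1) and 620 against 0 (P1 to P7) in proliferative, and 543 against 2 and 75 against 0 in venous cells, and 572 against 74 between embryonic and P1 Car4- cells. For hyperoxia it called 180 against 2 in Car4-, 268 against 0 in Car4+, 114 against 0 in proliferative and 93 against 0 in venous cells, and for its difference between classes 211, 163 and 100 against 0 (Car4+, venous, proliferative). Against Car4- cells it called 3189 and 1255 (Car4+), 1773 and 408 (venous), 1782 and 491 (proliferative), 1291 and 91 (arterial) and 2540 and 811 (lymphatic), and 1215 and 260 in venous against arterial cells. The cause was not tested.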
